A study of Homo sapiens with 11 samples.

Results

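CREBBP and EP300, which encode the lysine acetyltransferases CBP and p300, and the 6 class II histone deacetylase genes were followed across 3 human lung cell lines. The 8 genes are CREBBP, EP300, HDAC4, HDAC5, HDAC7, HDAC9, HDAC6 and HDAC10, taken by symbol from the 57815 genes listed in the RNA tables, and all 8 had a usable status in every library. CREBBP and HDAC9 were chosen by measured values, their FPKM in these libraries: their levels in the 2 carcinoma lines lie on opposite sides of the fibroblast level. Their values are therefore given as a description and carry no test. The other 6 complete the acetyltransferase pair and the deacetylase class and were tested in a model of all genes.

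CBP and p300 are large paralogous coactivators that acetylate histones, among them lysine 27 of histone H3 at enhancers, and transfer acetyl groups to many transcription factors. Class IIa deacetylases (HDAC4, HDAC5, HDAC7 and HDAC9) shuttle between nucleus and cytoplasm, bind MEF2 factors, and act mainly as docking platforms for the HDAC3 corepressor complex. Class IIb enzymes work largely outside the nucleus, HDAC6 on tubulin and HDAC10 on acetylated polyamines, and CREBBP is among the genes recurrently inactivated in small cell lung carcinoma.

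Small cell lung carcinoma is represented by the established lines DMS153 and H209 (NCI-H209), and MRC5 (MRC-5) is a line of noncancerous human lung fibroblasts. All 3 were untreated and were grown in the same medium with serum. There are 3 RNA-seq libraries for DMS153, 2 for H209 and 3 for MRC5, and Hi-C gives 1 list of chromatin domains per line. The design sets the carcinoma lines against the fibroblasts and against each other. Each group is 1 line, and the fibroblasts are another cell type as well as noncancerous, so malignancy, cell type and the particular line cannot be told apart. Whether the numbered replicates are separate cultures is not in the labels, and every p-value here measures only library-to-library spread, possibly technical in origin.

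The lines carried the neuroendocrine or fibroblast markers that go with their labels, while some epithelial markers were also present in the fibroblasts. All 8 neuroendocrine markers averaged at least 1 FPKM in both carcinoma lines (summed FPKM 1333 to 1509 in DMS153 and 1212 to 1244 in H209), and none did in MRC5, where the sum was at most 0.858 and INSM1 was listed at 0. Fibroblast markers summed to 7642 to 8486 FPKM in MRC5, 6.98 to 8.70 in DMS153 and 27.3 to 32.3 in H209, mostly THY1. The 6 epithelial markers summed to 1091 to 1193 FPKM in DMS153, 870 to 877 in H209 and 95.7 to 108 in MRC5. In MRC5 3 of the 6 averaged at least 1 FPKM, with KRT18 at 74.4 and KRT8 at 24.6. Blood markers reached at most 2.75 FPKM in sum and endothelial markers 0.857, so defining markers of those cells were near 0. FPKM is the number of fragments scaled by transcript length and by the mapped fragments of the library, so levels are per length and can be compared between genes. Library depth, read from the low values, was 0.953 to 1.64 times that of MRC5 replicate 1. MicroRNA loci held 39.4% to 43.7% of the summed FPKM in DMS153 and at most 0.0192% elsewhere, and their part in the differences between lines was not tested beyond the rescalings given here.

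The sequences just upstream of 4 transcription starts are shown because CREBBP and HDAC9 are the genes on which the lines divide, EP300 is the paralog that does not follow CREBBP, and HDAC9 has starts of very different base composition. Each is the 250 bases before a RefSeq start in GRCh38.p14, 5′ to 3′ on the strand of the gene. CREBBP is chr16:3880714-3880963 (minus strand), EP300 is chr22:41092342-41092591 (plus strand), and HDAC9 is chr7:18086575-18086824 for the distal start and chr7:18495460-18495709 for an internal start (both plus strand). Capitals mark TGACG (the core of the cyclic AMP response element, which CREB binds), GGGCGG (a GC box, bound by SP factors) and CCAAT, each searched on both strands, so that CCGCCC and ATTGG are their reverse forms.
CREBBP: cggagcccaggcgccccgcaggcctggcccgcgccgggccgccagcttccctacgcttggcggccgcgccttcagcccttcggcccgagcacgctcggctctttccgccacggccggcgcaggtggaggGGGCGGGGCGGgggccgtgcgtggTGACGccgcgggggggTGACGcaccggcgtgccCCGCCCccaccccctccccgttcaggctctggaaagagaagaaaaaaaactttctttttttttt
EP300: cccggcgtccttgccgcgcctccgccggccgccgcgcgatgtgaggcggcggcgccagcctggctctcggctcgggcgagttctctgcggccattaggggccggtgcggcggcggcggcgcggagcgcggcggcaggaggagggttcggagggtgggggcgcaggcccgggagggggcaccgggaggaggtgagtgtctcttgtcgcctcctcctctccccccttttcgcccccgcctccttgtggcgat
HDAC9 distal start: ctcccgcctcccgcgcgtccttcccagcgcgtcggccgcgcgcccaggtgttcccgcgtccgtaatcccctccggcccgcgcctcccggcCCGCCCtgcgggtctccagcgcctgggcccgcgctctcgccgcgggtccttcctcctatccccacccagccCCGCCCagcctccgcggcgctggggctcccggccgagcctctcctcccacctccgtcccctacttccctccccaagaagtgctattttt
HDAC9 internal start: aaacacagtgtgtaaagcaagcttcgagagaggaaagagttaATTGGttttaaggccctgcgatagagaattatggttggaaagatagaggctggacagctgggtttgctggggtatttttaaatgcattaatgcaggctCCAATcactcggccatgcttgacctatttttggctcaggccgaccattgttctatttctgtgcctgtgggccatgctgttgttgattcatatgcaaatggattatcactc

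CREBBP has 2 windows in the table. The one shown was 72.4% G or C with 31 CpG dinucleotides and held 2 TGACG and 3 GGGCGG matches, 2 of which share bases. The other, not shown, was 84% G or C with 46 CpG and held 4 GC boxes and no TGACG. The EP300 window, at 76.8% G or C and 35 CpG, lay between them in composition and held none of these 3 motifs. The distal HDAC9 window, with 75.2% G or C, 32 CpG and 2 GC boxes, resembled them in composition. The internal HDAC9 window had 44.0% G or C, 4 CpG and a CCAAT match on each strand. Over 35116 RefSeq windows of this length the medians were 58% and 11 CpG, and 21.2% held TGACG, 42.6% GGGCGG and 32.0% CCAAT. In all, 18 windows of 7 of the 8 genes were in the RefSeq table, HDAC5 being the one without an entry. No window of these genes held the MEF2 site, which 2.80% of all windows hold. The RNA values are per gene and do not show which start was used.

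CREBBP (ENSG00000005339.8, chromosome 16, 3775055 to 3930727 in hg19) stood at 32.1, 37.4 and 33.1 FPKM in the DMS153 libraries, at 2.90 and 2.87 in H209 and at 12.5, 12.2 and 14.2 in MRC5. The lines were ordered DMS153, MRC5, H209, and no library of one overlapped those of another. The DMS153 mean was 2.63 times that of MRC5, the MRC5 mean 4.50 times that of H209, and the DMS153 mean 11.8 times that of H209. On the scale of log2(FPKM + 1), used for every fold change here, the differences were 1.33 for DMS153 against MRC5, -1.85 for H209 against MRC5 and 3.18 between the carcinoma lines. The first was 0.88 with median ratio and 0.93 with TPM scaling. The deposited confidence interval of CREBBP in H209 reached 7.08% and 8.84% to either side of the value, so its low level there was measured well above 0. In bulk RNA, fewer cells of a type and less RNA per cell cannot be told apart. These are the values for which CREBBP was chosen.

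EP300 (ENSG00000100393.9, chromosome 22, 41487790 to 41576081) stood at 15.9, 16.5 and 16.4 FPKM in DMS153, at 12.5 and 11.8 in H209 and at 5.10, 4.33 and 5.50 in MRC5. Unlike CREBBP, it was above the fibroblasts in both carcinoma lines, with no overlap between any of the lines. EP300 was higher in DMS153 than in MRC5 by 1.53 ± 0.08 (SE; limma, Benjamini-Hochberg adjusted p = 1.08e-07) and in H209 by 1.14 ± 0.09 (adjusted p = 2.36e-06). A call needed an adjusted p below 0.05 and a log2 difference of 1 or more in size. The H209 call ended under 2 other scalings, at 0.59 with median ratio scaling (adjusted p = 0.000344) and 0.64 with quantile normalization (adjusted p = 9.71e-05). Between the carcinoma lines EP300 differed by 0.39 ± 0.09 (adjusted p = 0.00409), under the minimum fold. The difference turned to -0.22 with TPM scaling.

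The ratio of the 2 acetyltransferases within a library does not depend on any factor applied to the whole library. CREBBP was 2.10 ± 0.141 times EP300 in DMS153 (SD, n = 3) and 2.62 ± 0.183 times in MRC5 (n = 3), but 0.238 ± 0.00803 times in H209 (n = 2). H209 was thus the line with more EP300 than CREBBP RNA, in both of its libraries. The 2 genes summed to 50.5 ± 3.07 FPKM in DMS153 and 15.0 ± 0.508 in H209, against 18.0 ± 1.60 in MRC5. The H209 sum was made mostly of EP300 and, as deposited, lay below every MRC5 library. Unlike the ratio, this sum depends on library scaling. The FPKM of all genes summed to 519066 and 532754 in H209 and to 588141 to 640703 in MRC5, so that order need not hold with TPM scaling.

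**Figure D1:**
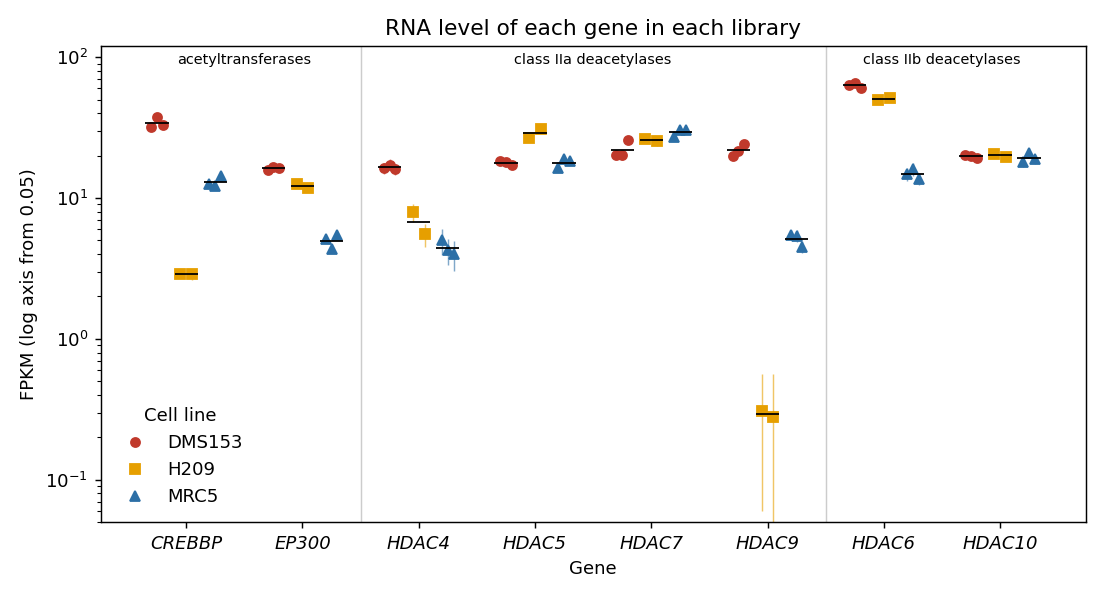
RNA level of the 8 genes in each library, as FPKM on a log axis that starts at 0.05; points are libraries of DMS153 (circles), H209 (squares) and MRC5 (triangles), vertical lines the deposited confidence intervals and short horizontal lines the line means. CREBBP and HDAC9 lie highest in DMS153 and lowest in H209, where HDAC9 is near 0.3 FPKM with intervals that reach 0.0596 and 0, whereas HDAC6 lies above MRC5 in both carcinoma lines and HDAC10 near 20 FPKM in all.

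HDAC9 (ENSG00000048052.17, chromosome 7, 18126572 to 19042039), the class IIa gene that also encodes a short form without the deacetylase domain, stood at 19.9, 21.5 and 24.2 FPKM in DMS153. It stood at 0.310 and 0.279 in H209 and at 5.48, 5.39 and 4.52 in MRC5. As with CREBBP, the order was DMS153, MRC5, H209 without overlap. The DMS153 mean was 4.26 times the MRC5 mean, which was 17.4 times the H209 mean, and the log2 differences from MRC5 were 1.90 and -2.24. In H209 the deposited intervals ran from 0.0596 to 0.560 and from 0 to 0.564, so the size of that ratio is imprecise. HDAC9 was also chosen for this pattern. Among the 19066 genes tested, 120 were called in opposite directions against MRC5 in the 2 carcinoma lines (0.629%), and for 58 of these DMS153 was the higher line (0.304%).

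HDAC4 (ENSG00000068024.12, chromosome 2, 239969864 to 240323348), a class IIa gene best known from growth plate cartilage and muscle, stood at 16.2, 17.3 and 16.0 FPKM in DMS153, at 7.91 and 5.52 in H209 and at 5.01, 4.24 and 3.99 in MRC5. DMS153 was high, and the lower H209 library lay close above the highest fibroblast library. HDAC4 was higher in DMS153 than in MRC5 by 1.70 ± 0.12 (limma adjusted p = 8.04e-07). In H209 the difference was 0.50 ± 0.14 (adjusted p = 0.00726), under the minimum fold, and it turned to -0.03 and -0.08 with median ratio scaling and quantile normalization. Between the carcinoma lines HDAC4 was 1.20 ± 0.14 higher in DMS153 (adjusted p = 4.29e-05). The 2 H209 libraries differed more than those of any other of these genes in a line (coefficient of variation 25.1%), and without H209 replicate 2 the difference was 0.97 (adjusted p = 0.000300) and no longer called. With TPM scaling it was 0.63 (adjusted p = 0.00547).

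HDAC5 (ENSG00000108840.11, chromosome 17, 42154114 to 42201070), a class IIa repressor of stress-responsive growth in heart muscle, stood at 18.2, 18.0 and 17.0 FPKM in DMS153, at 26.5 and 31.0 in H209 and at 16.3, 18.8 and 18.4 in MRC5. H209 was high, and the libraries of DMS153 and MRC5 overlapped. HDAC5 in H209 was 0.66 ± 0.09 above MRC5 (limma adjusted p = 0.000106) and 0.66 ± 0.09 above DMS153 (adjusted p = 0.000153), both under the minimum fold. The first was 0.06 with median ratio scaling. With TPM scaling the second difference passed it, at -1.30 for DMS153 against H209 (adjusted p = 7.77e-07). DMS153 and MRC5 differed by -0.01 ± 0.08 (adjusted p = 0.955), a value whose sign changed with the scaling (0.30 when scaled without small RNA and mitochondrial genes).

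HDAC7 (ENSG00000061273.13, chromosome 12, 48176505 to 48226915), a class IIa gene known from blood vessel and thymocyte development, stood at 20.1, 20.2 and 25.6 FPKM in DMS153, at 26.2 and 25.4 in H209 and at 27.2, 30.4 and 30.1 in MRC5. All 3 fibroblast libraries were above those of the carcinoma lines, which overlapped each other. HDAC7 was -0.40 ± 0.10 in DMS153 against MRC5 (limma adjusted p = 0.00363) and -0.17 ± 0.11 in H209 (adjusted p = 0.169), and neither reached the minimum fold. The H209 value was 0.04 with TPM scaling.

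The makeup of class IIa RNA differed between the lines. HDAC4, HDAC5, HDAC7 and HDAC9 together gave 78.1 ± 4.30 FPKM in DMS153 (SD, n = 3), 61.5 ± 0.899 in H209 (n = 2) and 56.6 ± 2.47 in MRC5 (n = 3). Without HDAC9 the sums were 56.2 ± 2.17, 61.2 ± 0.921 and 51.5 ± 2.63. Unlike the shares that follow, these sums depend on library scaling. The FPKM of all genes summed to 810283 to 841850 in DMS153, 519066 and 532754 in H209, and 588141 to 640703 in MRC5. The order of lines is therefore that of FPKM as deposited and need not hold with TPM scaling. HDAC9 made up 27.9% ± 1.21 of the class IIa FPKM in DMS153, 9.08% ± 1.12 in MRC5 and 0.479% ± 0.0423 in H209. HDAC7 was the largest component in MRC5, at 51.6% ± 1.29. In H209 HDAC5 and HDAC7 held 46.7% ± 4.49 and 41.9% ± 1.55, and in DMS153 the 4 genes lay between 21.2% and 28.1% each.

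**Figure D2:**
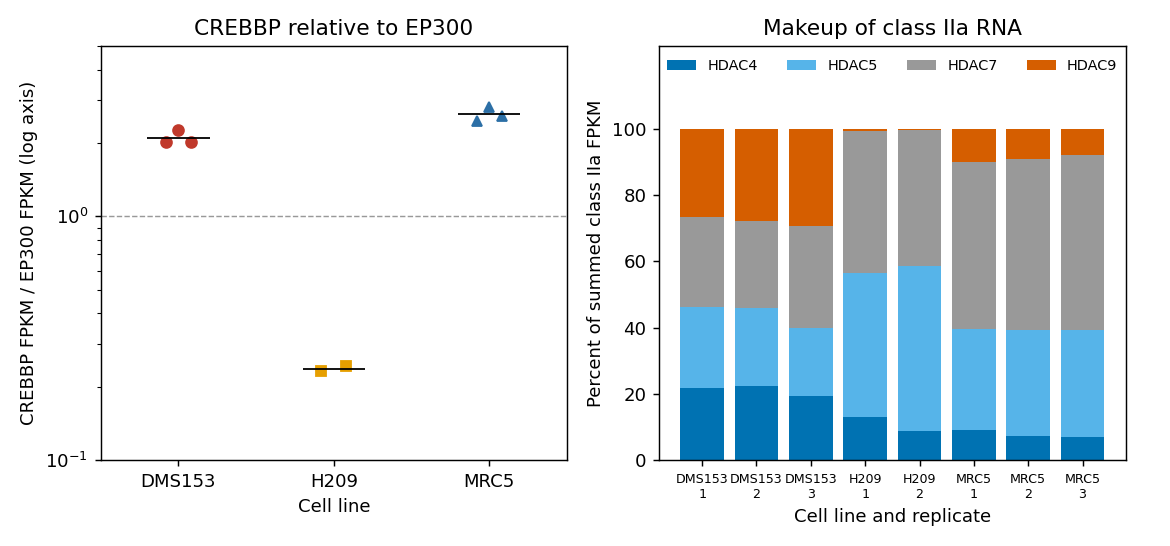
Left, CREBBP FPKM divided by EP300 FPKM in each library on a log axis, with line means as horizontal bars and equality as a dashed line; the H209 libraries lie at 0.232 and 0.244 and the others between 2.02 and 2.82. Right, the percent of summed class IIa FPKM held by HDAC4, HDAC5, HDAC7 and HDAC9 in each library; HDAC9 takes over 26% in every DMS153 library and about 0.5% in H209.

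HDAC6 (ENSG00000094631.14, chromosome X, 48659784 to 48683392), the class IIb enzyme that deacetylates tubulin and cortactin and binds ubiquitin, stood at 63.4, 65.5 and 60.6 FPKM in DMS153, at 49.6 and 51.1 in H209 and at 14.8, 16.0 and 13.7 in MRC5. The carcinoma lines were high without any overlap. HDAC6 rose by 2.02 ± 0.07 in DMS153 against MRC5 (limma adjusted p = 4.36e-09) and by 1.70 ± 0.08 in H209 (adjusted p = 4.01e-08). Both calls held under all 5 scalings, with 1.10 in H209 after median ratio scaling as the smallest. Between the carcinoma lines the difference was 0.32 ± 0.08 (adjusted p = 0.00435), which is under the minimum fold and turned to -0.32 with TPM scaling.

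HDAC10 (ENSG00000100429.13, chromosome 22, 50683612 to 50689834), the polyamine deacetylase, stood at 20.3, 19.8 and 19.4 FPKM in DMS153, at 20.7 and 19.7 in H209 and at 17.9, 21.0 and 18.8 in MRC5. The libraries of all 3 lines overlapped. Log2 differences from MRC5 were 0.04 ± 0.07 in DMS153 (limma adjusted p = 0.583) and 0.07 ± 0.08 in H209 (adjusted p = 0.452), and their signs changed with the scaling. The ratio of HDAC6 to HDAC10, likewise free of such a factor, was 3.19 ± 0.108 in DMS153, 2.50 ± 0.142 in H209 and 0.774 ± 0.0489 in MRC5. HDAC6 thus exceeded HDAC10 in every carcinoma library and was below it in every fibroblast library.

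Within DMS153 the order of levels per length was HDAC6, CREBBP, then HDAC7, HDAC9 and HDAC10, whose libraries overlapped in sequence, then HDAC5, HDAC4 and EP300, which likewise overlapped from one to the next. In H209 it was HDAC6, HDAC5, HDAC7, HDAC10, EP300, HDAC4, CREBBP and HDAC9, with no overlap between neighbours, though with only 2 libraries. In MRC5 HDAC7 led. HDAC10 and HDAC5 overlapped, as did HDAC6 and CREBBP, and HDAC9, EP300 and HDAC4 ended the order with overlapping libraries. HDAC6 was thus first in both carcinoma lines and behind 3 other genes in the fibroblasts.

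Of the 6 tested genes, 3 were called higher in DMS153 than in MRC5 (EP300, HDAC4 and HDAC6), where 50.4% of all genes tested were called, 34% higher and 16.4% lower. In H209, 2 of the 6 were called higher (EP300 and HDAC6) beside 47.9% of all genes called, 33% higher and 14.9% lower. Between the carcinoma lines 1 of the 6, HDAC4, was higher in DMS153, beside 27.1% called, 13.8% higher and 13.4% lower. An adjusted p below 0.05 at any fold was reached by 4 of the 6 in each comparison, beside 86.7%, 83.1% and 73.5% of all genes. Libraries did not overlap for 4, 5 and 4 of the 6, beside 87.3%, 88.1% and 82.3% of all genes, so most genes separate these lines. With CREBBP and HDAC9, whose choice fixed their separation, the counts were 6, 7 and 6 of 8. The comparisons with MRC5 share its 3 libraries and are set side by side only.

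The median log2 difference of all genes was 0.44 for DMS153 against MRC5, 0.46 for H209 against MRC5 and -0.04 for DMS153 against H209. This shift depends on scaling, and the calls in DMS153 divided into 6489 higher and 3123 lower as deposited, 5076 and 4389 with median ratio scaling, 4242 and 4432 with quantile normalization, 5651 and 4422 with TPM scaling, and 8467 and 2767 when scaled without small RNA and mitochondrial genes. In H209 the splits in that order were 6300 and 2839, 4261 and 4317, 4086 and 3800, 7939 and 2689, and 8160 and 2680. Between the carcinoma lines they were 2622 and 2547, 2831 and 1971, 2459 and 2747, 1782 and 6319, and 3386 and 2796. The members' differences from MRC5 are also given from the median gene of the same scaling. HDAC6 lay 1.46 to 1.89 above it in DMS153 and 1.06 to 1.46 above it in H209 over the 5 scalings, and EP300 1.02 to 1.15 and 0.55 to 0.70. HDAC4 lay 1.18 to 1.32 above it in DMS153 but between -0.11 and 0.03 in H209. HDAC7 lay below it in both lines, at -0.97 to -0.53 and -0.81 to -0.39, and so did HDAC10, at -0.51 to -0.16 and -0.56 to -0.25. CREBBP stood 0.78 to 1.13 above the median gene in DMS153 and at -2.51 to -2.31 from it in H209, and HDAC9 at 1.37 to 1.52 and -3.41 to -2.61. HDAC5 stood at -0.56 to -0.24 in DMS153 and 0.02 to 0.37 in H209.

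**Figure D3:**
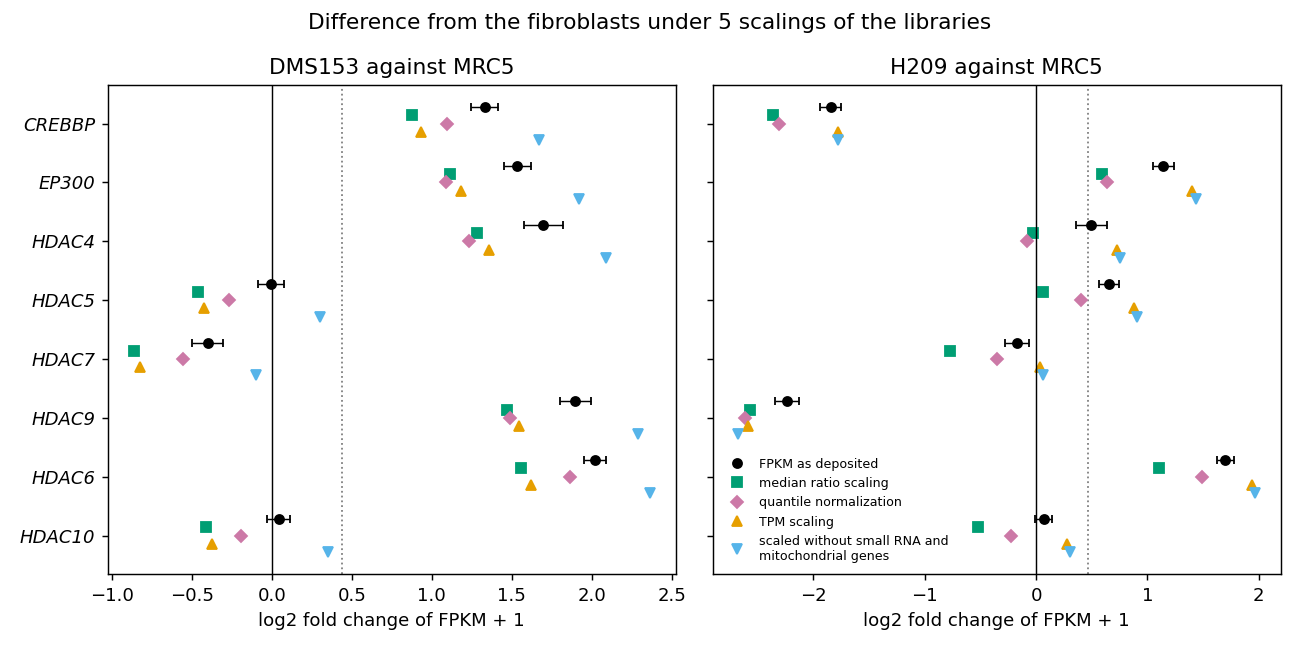
Difference from MRC5 in DMS153 (left) and H209 (right) as log2 fold change of FPKM + 1 under 5 scalings; circles are the FPKM as deposited with bars of 1 standard error, the other symbols the rescaled values, and the dotted line is the median of all genes as deposited. CREBBP and HDAC9 stay on opposite sides of 0 in the 2 lines, EP300 and HDAC6 stay to the right in both, and HDAC5 and HDAC10 in DMS153 fall on either side.

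Among 8175 genes that differed between line means by at least 1 log2 unit and reached 5 FPKM, the levels most like those of CREBBP over the 8 libraries belonged to PNPLA4 (Pearson r = 0.999), HIP1 (0.998), LRRFIP1 (0.997), LYNX1 and KHDC1 (both 0.996). For HDAC9 they belonged to XYLT1 (0.999), LRRFIP1 (0.998), OR51E2 (0.998), PNPLA4 (0.997) and NUDCD3 (0.995). PNPLA4 and LRRFIP1 were thus named for both. CREBBP and HDAC9 had r = 0.993 with each other, having been picked for the same order of lines, and CREBBP and EP300 had r = 0.248. With 3 lines, the 8 points share line, depth and scaling, so these values describe the order of 3 levels. PNPLA4 averaged 13.5 FPKM in DMS153 and 0.000493 in H209, against 3.61 in MRC5. LRRFIP1 averaged 105, 27.5 and 57.2 FPKM in the same order.

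The 2 tested genes nearest to CREBBP on its lower-coordinate side were also low in H209. TRAP1, a mitochondrial chaperone gene 7.46 kb away, stood at 0.102 ± 0.0340 FPKM in H209 (SD, n = 2) against 34.8 ± 2.51 in MRC5 and 43.7 ± 1.01 in DMS153 (n = 3 each), a log2 difference of -5.02 from MRC5 (limma adjusted p = 6.58e-11). DNASE1, which encodes a secreted nuclease and whose locus overlaps that of TRAP1, was listed at 0 in both H209 libraries, at 4.54 ± 0.259 FPKM in MRC5 and at 11.8 ± 1.64 in DMS153. Just beyond them SLX4, a scaffold of DNA repair nucleases, was higher in H209 than in MRC5 (12.5 ± 0.0618 against 1.71 ± 0.0275 FPKM) and also higher in DMS153 (7.93 ± 0.230). NLRC3 was higher in H209 (7.56 ± 0.124 against 0.191 ± 0.0169), while ZNF597, further out, was again low (0.00825 ± 0.00245 against 1.48 ± 0.172). On the other side of CREBBP, ADCY9, an adenylyl cyclase gene 72.7 kb away, stood at 8.10 ± 0.390 FPKM in H209 and 17.1 ± 0.860 in MRC5, a difference of -0.99 that did not reach the minimum fold. TFAP4 was higher than MRC5 (2.99 ± 0.715 FPKM) in both H209 (14.8 ± 0.665) and DMS153 (22.2 ± 2.89). The 500 kb window, SLX4, NLRC3 and ZNF597 were chosen after the values were seen. Of its 20 tested neighbours, 5 were called higher and 5 lower in H209 than in MRC5, beside 33% and 14.9% of all genes. Genomic copy number was not analysed here.

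**Figure D4:**
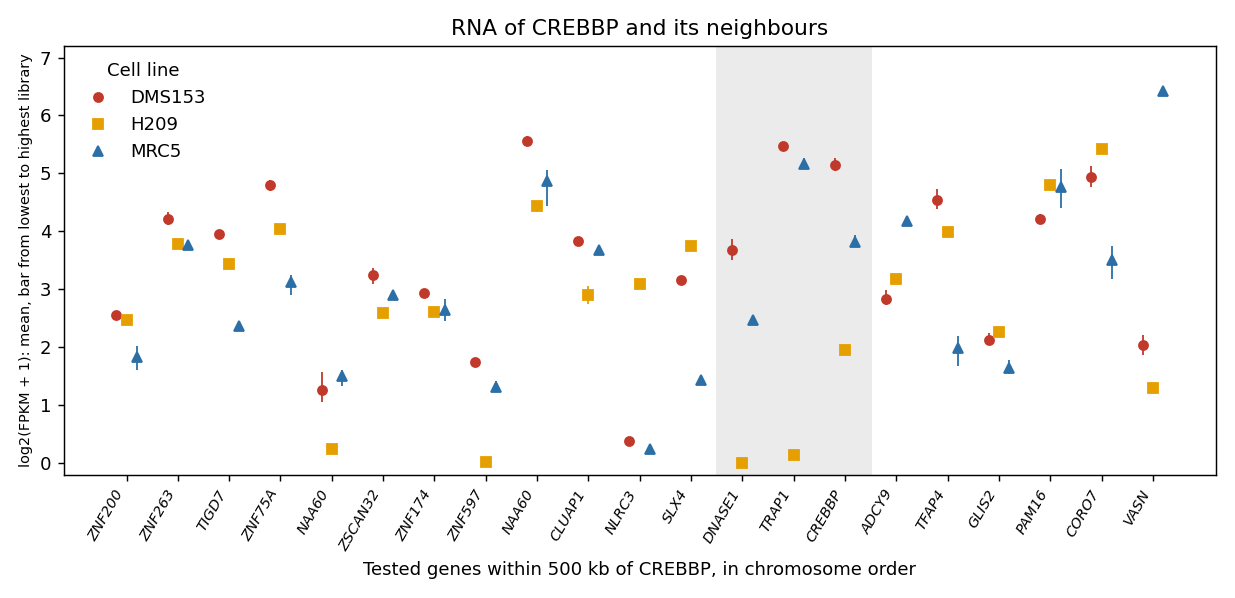
Mean log2(FPKM + 1) of CREBBP and its 20 tested neighbours within 500 kb, in chromosome order, for DMS153 (circles), H209 (squares) and MRC5 (triangles), with bars from the lowest to the highest library; 2 listed genes share the symbol NAA60. In the shaded stretch of DNASE1, TRAP1 and CREBBP, H209 lies below both other lines, whereas SLX4 to the left is highest in H209.

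HDAC9 has few neighbours. TWIST1, a transcription factor gene of mesenchymal cells 18.6 kb away, stood at 6.09 ± 0.575 FPKM in MRC5, 0.0118 ± 0.00386 in DMS153 and 0.0264 ± 0.00893 in H209, so it was low in both carcinoma lines while HDAC9 was high in one of them. On the other side SNX13, a sorting nexin gene 146 kb away, stood at 27.8 ± 1.24 FPKM in DMS153 and 14.5 ± 0.197 in H209, against 9.82 ± 0.908 in MRC5, higher than MRC5 by 1.41 in DMS153 (limma adjusted p = 1.10e-07). AHR, the receptor gene for dioxins 741 kb away, stood at 5.98 ± 1.24 FPKM in DMS153 and 0.672 ± 0.0876 in H209, against 12.0 ± 1.95 in MRC5. It differed from MRC5 by -0.91 and -2.95 (limma adjusted p = 0.000328 and 1.91e-07). TWISTNB, 693 kb away on the side of TWIST1, stood at 12.8 ± 1.12 FPKM in DMS153 and 8.43 ± 0.126 in H209, against 8.55 ± 1.29 in MRC5. Its difference in H209 was -0.01. HDAC4 likewise lies near a TWIST gene, TWIST2, which stood at 9.52 ± 0.736 FPKM in MRC5 and at most 0.0216 FPKM in any carcinoma library. PCSK1N, which encodes an inhibitor of prohormone convertase and lies 6.11 kb from HDAC6, stood at 45.0 ± 4.56 FPKM in DMS153 and 83.5 ± 0.355 in H209, against 0.101 ± 0.122 in MRC5.

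The nearest genes of the remaining members are given in part. Differences and calls of neighbouring genes, here and above, are from FPKM as deposited. They were not followed under the other scalings, so those near the minimum fold may depend on scaling. VDR, the vitamin D receptor gene 8.40 kb from HDAC7, stood at 3.00 ± 0.0461 FPKM in DMS153 and 0.186 ± 0.0965 in H209, against 4.42 ± 0.144 in MRC5. It was lower in H209 than in MRC5 (-2.20, limma adjusted p = 1.21e-08). Of the 9 tested genes within 500 kb of HDAC7, 4 were called higher and 1 lower in H209, beside 33% and 14.9% of all genes. L3MBTL2, which encodes a Polycomb-related protein 25.1 kb from EP300, stood at 8.33 ± 1.11 FPKM in DMS153 and 12.5 ± 0.195 in H209, against 5.34 ± 0.492 in MRC5 (0.55 and 1.09, limma adjusted p = 0.000526 and 1.11e-05). TUBGCP6, a gene of the gamma-tubulin ring complex 0.191 kb from HDAC10, stood at 13.8 ± 0.699 FPKM in DMS153 and 15.8 ± 0.475 in H209, against 8.44 ± 0.603 in MRC5. G6PC3, a glucose-6-phosphatase gene 0.405 kb from HDAC5, stood at 22.9 ± 1.75 FPKM in DMS153 and 18.9 ± 0.287 in H209, against 41.7 ± 6.01 in MRC5 (-0.83 and -1.09, limma adjusted p = 5.18e-05 and 1.79e-05).

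Some of these loci overlap other listed genes, and the strand of counting is not given in the sources used here, so reads of overlapping genes cannot be told apart. EP300 overlaps RP1-85F18.6, at 7.07 FPKM in DMS153 and 6.92 in H209, against 2.90 in MRC5, which had the same order of lines. HDAC10 overlaps MAPK12 (13.1, 27.1 and 19.9 FPKM) and HDAC7 overlaps SLC48A1 at its edge (5.61, 8.27 and 8.04) and AC004466.1 within it (1.74, 1.62 and 1.59). At CREBBP, HDAC4, HDAC5 and HDAC9 no overlapping gene reached 1 FPKM in any library, and at HDAC6 none was listed.

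The Hi-C lists gave 5023 domains in DMS153, 3987 in H209 and 3701 in MRC5, with ends on a 20 kb grid and medians of 240, 300 and 300 kb. With 1 library per line these are descriptions without a test. CREBBP lay mostly, but not whole, in a listed domain in DMS153, from 3800000 to 3939998 on chromosome 16, while neither H209 nor MRC5 had a domain touching the locus. EP300 lay whole inside a domain of MRC5 (chromosome 22, 41300000 to 41579998). Both carcinoma lines instead listed a domain from 41340000 to 41499998 that ended inside the gene. A gene without a listed domain may lie between domains or in a stretch the caller left out, and these were not told apart.

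HDAC9, whose locus spans 915468 bp, was crossed by several domains. DMS153 and MRC5 shared those at 17720000 to 18379998 and 18380000 to 18619998 on chromosome 7, and MRC5 had a further domain at 18720000 to 19159998. H209 had 17740000 to 18399998, with both ends within 40 kb of those of the first domain that DMS153 and MRC5 shared. It also had a long domain at 18700000 to 19719998, and none at the middle of the gene. Whether these domains bear on HDAC9 RNA was not tested. HDAC4 lay mostly in a domain of 280 kb in each line, shifted by 20 kb in MRC5, and DMS153 had another at its lower edge. HDAC6 was held whole in domains of 720, 860 and 900 kb in DMS153, H209 and MRC5, and HDAC7 was touched at its edge by the same domain in all 3 (48100000 to 48179998). No domain touched HDAC5 or HDAC10 in any line. Of the ends of domains at the middle of a locus, 5 of 8 in DMS153 and 4 of 4 in H209 lay within 40 kb of an MRC5 end, beside 64.0% and 71.9% of all domain ends.

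Among the other deacetylases, HDAC1 and HDAC2, the nuclear class I enzymes, were higher in DMS153 than in MRC5 and HDAC11 was lower (2 higher and 1 lower of 5 tested). HDAC1 stood at 124 ± 2.47 FPKM in DMS153 and 165 ± 11.4 in H209, against 44.1 ± 1.47 in MRC5, a rise of 1.47 and 1.88 (limma adjusted p = 1.60e-08 and 8.86e-09). HDAC3, the partner of class IIa proteins, was lower in DMS153 than in H209 (-1.31, adjusted p = 4.47e-07), at 18.4 ± 0.837 against 47.3 ± 3.21 FPKM. In H209 1 of the 5 was higher and 1 lower, and the list medians were 0.22 and 0.79 beside 0.44 and 0.46 for all genes. The shares of all genes called higher and lower were 34% and 16.4% in DMS153, and 33% and 14.9% in H209. The HDAC2 call (1.17) ended with median ratio (0.69) and TPM (0.74) scaling, and 1 to 3 of the 5 were called higher in H209 over the scalings. The sirtuins, deacetylases that use NAD, had 0 of 6 called in DMS153 by limma, with differences of 0.32 to 0.98 that all had an adjusted p below 0.05. That threshold was passed by 86.7% of all genes in this comparison, and the sirtuin median of 0.49 was close to the 0.44 of all genes. In H209 SIRT1 (1.04, adjusted p = 1.73e-05) and SIRT6 (1.10, adjusted p = 2.08e-05) were called higher. Both sirtuin calls ended with median ratio scaling and with quantile normalization.

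Of 13 other lysine acetyltransferases, 7 were higher in DMS153 and 4 in H209 than in MRC5, with 0 lower, beside 34% and 33% of all genes called higher. The list medians were 1.00 and 0.85. NCOA1, a nuclear receptor coactivator that binds CBP, stood at 18.3 ± 1.06 FPKM in DMS153 and 16.6 ± 0.0445 in H209, against 5.80 ± 0.234 in MRC5, and its call in H209 (1.37) ended with median ratio (0.81) and quantile (0.92) scaling. ATAT1, which acetylates the tubulin lysine that HDAC6 deacetylates, reached 40.7 ± 5.10 FPKM in H209 against 6.25 ± 0.736 in MRC5 (2.52, adjusted p = 2.19e-08) and 14.1 ± 0.195 in DMS153. The number called higher in each line ranged from 1 to 8 over the 5 scalings. Acetyl-lysine readers, mostly bromodomain proteins, had 11 of 16 higher in DMS153 and 10 of 16 in H209, 0 lower, and medians of 1.28 and 1.47. CECR2 stood at 12.3 ± 0.855 and 11.4 ± 0.330 FPKM against 0.0147 ± 0.00628 in MRC5, and ATAD2, a replication-linked reader, at 41.8 ± 3.86 and 46.6 ± 2.63 against 2.49 ± 0.279. Over the scalings 6 to 11 and 6 to 12 readers were called higher.

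Partners of the 2 coactivators moved in both directions. Of 6 CREB factors and coactivators (medians 0.46 and 0.74), CRTC1 and CRTC2, which link CREB to CBP, were higher in both carcinoma lines, with CRTC1 at 35.4 ± 0.887 FPKM in DMS153 and at 19.4 ± 0.559 in H209 against 4.71 ± 0.507 in MRC5 (2.68 and 1.84, limma adjusted p = 1.41e-09 and 4.85e-08). CREM was lower in DMS153 (-1.10, adjusted p = 1.84e-05). The CRTC2 call in H209 (1.07) ended with median ratio scaling (0.47) and quantile normalization (0.89), and the CREM call when scaled without small RNA and mitochondrial genes (-0.84). CREB1 itself was 0.83 and 0.76 above MRC5, under the minimum fold. Of 11 other partners, 2 were higher and 4 lower in DMS153, and 3 higher and 6 lower in H209, with medians of -0.36 and -1.09. Of all genes, 34% were called higher and 16.4% lower in DMS153, and 33% and 14.9% in H209, with medians of 0.44 and 0.46. Only the lower calls of the 11 exceeded these shares. Over the scalings 4 to 5 of the 11 were called lower in DMS153 and 4 to 7 in H209. MYB, whose activation domain binds the KIX domain of CBP, stood at 15.4 ± 1.66 and 14.0 ± 1.16 FPKM against 0.0226 ± 0.0381 in MRC5. SMAD3, which recruits both coactivators to targets of transforming growth factor beta, stood at 2.58 ± 0.0368 and 2.07 ± 0.325 against 50.6 ± 5.98. EPAS1, a hypoxia factor, was at 91.0 ± 25.0 FPKM in DMS153 and 12.1 ± 2.45 in H209, against 236 ± 5.35 in MRC5.

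Class IIa deacetylases are held in the cytoplasm by kinases and 14-3-3 proteins, and these lists were mixed. Of 14 kinases, 6 were higher and 3 lower in DMS153 than in MRC5, and 4 higher and 2 lower in H209, with medians of 0.86 and 0.53. Among all genes tested, 34% were called higher and 16.4% lower in DMS153, and 33% and 14.9% in H209, with medians of 0.44 and 0.46. The kinase counts were thus near those of genes in general. Over the scalings 3 to 9 kinases were called higher in DMS153 and 2 to 6 in H209. The calcium-dependent kinases were called in both directions. CAMK1D (2.73 and 3.11) and CAMK2B (2.95 and 3.24) were higher in DMS153 and H209, whereas CAMK1 (-2.07 and -1.22) and CAMK2D (-1.74 and -1.98) were lower (limma, highest adjusted p = 2.16e-05, for CAMK1 in H209). Of 7 genes of 14-3-3 proteins, SFN alone was called in each line (list medians -0.13 and 0.69, with 1 to 5 higher and 0 to 2 lower in H209 and 0 to 1 lower in DMS153 over the scalings), at 21.2 ± 1.76 and 21.0 ± 0.682 FPKM against 0.0245 ± 0.0241. MEF2 factors, the main DNA-bound partners, had 3 of 4 tested, with medians of -0.39 and -0.23. MEF2A, MEF2B and MEF2D differed by -0.70, -0.39 and 0.41 in DMS153 (adjusted p = 0.000197, 0.0343 and 0.000739), so 0 were called there, and MEF2B was higher in H209 (1.58, adjusted p = 1.54e-05). The MEF2B call ended with quantile normalization (0.90), and 0 to 1 factors were called lower in DMS153 over the scalings.

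In the HDAC3 corepressor complex 2 of 7 were higher in each line, with medians of 0.19 and 0.59 and 1 to 3 higher over the scalings. This was no more than the share of all genes called higher, 34% in DMS153 and 33% in H209. The lower shares of all genes were 16.4% and 14.9%, and their medians 0.44 and 0.46. CORO2A was 1.97 and 2.33 higher, and TBL1XR1 was 1.35 higher in DMS153, a call that ended with median ratio (0.89) and TPM (0.94) scaling. TBL1XR1, an exchange factor of the complex, was also 1.69 higher in DMS153 than in H209 (limma adjusted p = 2.61e-06). Among other class IIa partners, BCOR (3.19 and 2.21) and the heterochromatin protein gene CBX5 (2.70 and 2.14) were higher and BCL6 lower (-1.16 and -1.41), out of 7 in each line, with medians of -0.55 and -0.07. Over the scalings 0 to 4 were called lower in DMS153 and 1 to 2 in H209, and the BCL6 call in DMS153 ended when scaled without small RNA and mitochondrial genes (-0.91).

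Of 9 substrates and partners of HDAC6, 1 was higher and 2 were lower in each line, with medians of -0.79 in DMS153 and 0.48 in H209. Beside these, 34% of all genes were called higher and 16.4% lower in DMS153, and 33% and 14.9% in H209, with medians of 0.44 and 0.46. Over the scalings 2 to 6 of the 9 were called lower in DMS153. TPPP, which promotes tubulin polymerisation, stood at 15.6 ± 0.820 and 18.4 ± 0.170 FPKM against 0.127 ± 0.0479 in MRC5. SQSTM1, the autophagy receptor p62, was at 36.6 ± 1.96 and 48.2 ± 5.70 against 482 ± 32.5, and CTTN (cortactin) at 76.2 ± 2.27 and 85.2 ± 2.51 against 212 ± 3.62. The chaperone gene HSP90AA1 (-1.66) and the stress granule gene G3BP1 (-1.60) were lower in DMS153 than in H209 (limma adjusted p = 5.23e-07 and 1.57e-07). Of 10 genes of polyamine metabolism tested beside HDAC10, 0 were higher and 3 lower in DMS153, and 1 higher and 2 lower in H209, with medians of -0.11 and 0.22. SMOX, spermine oxidase, was lower in both (-1.83 and -2.26), OAZ1, the antizyme, lower in DMS153 (-2.09), and SMS, spermine synthase, higher in H209 (1.53). Over the scalings 0 to 2 of these were called higher in H209, SMS not with median ratio scaling (0.91), and 2 to 4 were called lower in DMS153.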

How the data were processed

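RNA was measured in 3 DMS153, 2 H209 and 3 MRC5 libraries, and Hi-C in 1 library per line. Per the file headers, the deposited RNA tables hold FPKM values of the authors with confidence bounds and a status for each gene. The Hi-C lists have no header, and give for each domain its ends and a deposited score of unstated meaning, used only to drop the lowest-scored domains in an alternative. Per the submitters' processing notes, Bowtie2, TopHat2 2.1.0, Cufflinks 2.2.0, HOMER 4.8 and hg19 were used. The labels of the RNA libraries repeat the Hi-C wet-lab text, so how RNA was selected and whether strand was kept is not given, and titles that write DM153 were taken as DMS153 from the cell line field.

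Genes with at least 1 FPKM in at least 2 libraries (19066) were fitted as log2(FPKM + 1) with limma 3.58.1 in R 4.3.3, all 8 libraries in 1 fit with a trended eBayes and 5 residual degrees of freedom. Tests were 2-sided and Benjamini-Hochberg adjusted over all genes, and the fit was checked on simulated data. A difference on this scale understates the change of low genes. The members, gene lists and naming rule were chosen with earlier results of these data known. The rule named all members, up to 2 called genes per list and direction, by size, and the 5 most alike. It also covered 2 tested neighbours on each side and overlapping genes. Only part of these neighbours and overlapping genes are given, and the rule did not fix which. CREB1, MEF2A, MEF2D, SLX4, NLRC3 and ZNF597 were named after their values were seen. Alternatives varied pseudocount, filter, scaling, variance model, libraries and replicate block. Whether same-numbered libraries were paired was checked by correlating their deviations from line means. Upstream sequences are from RefSeq (GRCh38.p14) and were not matched to hg19 coordinates.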

Additional observations from a re-analysis of the deposited data

Results flagged for a closer look

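CREBBP was higher than in MRC5 in every DMS153 library and lower in every H209 library, and the lines differed by 3.18 on the log2 scale. The same held for HDAC9, with a difference of 4.14. Both genes were chosen for this pattern, and the differences between the lines were not tested.

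HDAC4 differed from MRC5 by 1.70 in DMS153 and by 0.50 in H209, and the difference between these, 1.20, passed the test (limma adjusted p = 4.29e-05). It fell under the minimum fold without H209 replicate 2 (0.97).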

How the results depend on the processing

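CREBBP and HDAC9 kept their direction in all 3 comparisons under the 5 scalings, although CREBBP in DMS153 against MRC5 ranged from 0.88 to 1.67. Both genes were chosen for that direction and their libraries did not overlap between lines. Most of the 21 alternatives therefore could not have turned it, and its persistence there is no added support. The number of members called in H209 against MRC5 was 2 of 6, and 1 with median ratio scaling and with quantile normalization, where EP300 fell under the minimum fold. For DMS153 against H209 it was 1, and 0 to 1 when each library was left out in turn (0 without H209 replicate 2), while the number of all genes called was 5169, and 8101 with TPM scaling. Under TPM scaling the member called was HDAC5, lower, in place of HDAC4, higher. Leaving out the lowest-scored domains left 3 of 4 ends shared in DMS153 and 2 of 2 in H209, in place of 5 of 8 and 4 of 4. The other 174 values that answer a comparison, counted over the alternatives, stayed within 1.5 times for counts, which does not say that they count the same genes, or moved by less than 1 SD for within-library ratios. Of 76 calls of list genes, 59 held under all 5 scalings.

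With the replicate number as a block, 9615, 9112 and 5101 genes were called for DMS153 and then H209 against MRC5, and for the carcinoma lines against each other (9612, 9139 and 5169 without), and the members called stayed at 3, 2 and 1. Deviations of same-numbered libraries correlated at -0.0118 to 0.123, and those of differently numbered libraries at -0.123 to 0.0541. Deviations within a line sum to 0, and there are only 2 or 3 libraries per line. The check therefore cannot settle whether same-numbered libraries share a batch or a pairing. The FPKM tables hold no counts, and the deposited intervals limit HDAC9 in H209 most.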
